A study of Homo sapiens with 9 samples.

Results

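The 39 HOX genes of the HOXA, HOXB, HOXC and HOXD clusters were examined in wild-type and JAG1 knockout breast cancer cells. They were chosen by symbol, as every listed gene named HOX followed by a cluster letter and a number, and they are 39 of the 56505 genes listed. HOXA holds 11 of them, HOXB 10, HOXC 9 and HOXD 9. Of the 39, 13 had enough counts to be tested, 15 had a few counts, and 11 had 0 counts in all 9 libraries.

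HOX genes encode homeodomain transcription factors that give cells their position along the body axis. In the embryo, the order of the genes along a cluster matches the order of their expression from front to back. Adult cells often keep part of this pattern, held on by MLL complexes and off by Polycomb complexes, and HOX genes take part in mammary gland development. HOX proteins bind DNA together with cofactors of the PBX and MEIS families.

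All libraries came from MDA-MB-231-D3H2LN, a human breast tumour cell line derived from MDA-MB-231, kept in high-glucose DMEM plus serum. The 3 groups, with 3 libraries each, were wild-type cells (labelled R), JAG1 knockout clone 1 (E) and JAG1 knockout clone 2 (F), and no other treatment is named. JAG1 encodes a ligand of the Notch receptors. Cas9 protein with guides to separate places of a JAG1 exon had been used, and each clone, homozygous for the deletion, descends from 1 cell. A clone is therefore 1 cell line, and what the deletion did cannot be told apart from what the founding cell already carried. The labels do not say whether the replicates were separate cultures, so the p-values speak only of how far these libraries scatter, a scatter that may be technical. Both clones were compared with the same 3 wild-type libraries.

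Total counts per library ran from 16890890 to 22456164. JAG1 averaged 195.9 ± 44.7 CPM in wild type (counts per 1000000 counts of a scaled library; mean ± SD, n = 3), 94.5 ± 14.9 in clone 1 and 66.9 ± 9.87 in clone 2, a fall of 1.05 and 1.55 on the log2 scale (edgeR adjusted p = 0.00312 and 0.00013). Of 6 marker genes of mesenchymal-like breast lines, VIM, CD44, AXL and CAV1 were at 495 CPM or more in every library and FN1 at 276 or more, while SPARC averaged 95.8 CPM in wild type but 4.95 in clone 1 and 3.98 in clone 2. Of 9 epithelial and luminal markers, KRT8 ran from 225 to 614 CPM, KRT18 from 111 to 370, ERBB2 from 75.3 to 98.5, EPCAM from 11.5 to 25.4, GATA3 from 8.19 to 17.5 and FOXA1 from 1.52 to 4.70, while CDH1, ESR1 and PGR reached at most 0.804, 1.29 and 0.446. Among blood markers CD3E and HBB were at 0, PTPRC reached 0.437 CPM and CD14 ran from 0.186 to 4.19. The share of counts from the 37 mitochondrial genes was 2.82 ± 1.08% in wild type, compared with 3.89 ± 1.41% in clone 1 and 1.33 ± 0.53% in clone 2, and its part in the results was not tested. The summed level of those 9 epithelial and luminal markers ran from 699 to 848 CPM in wild type, against 457 to 555 in clone 1 and 918 to 1090 in clone 2, and its part was not tested either.

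HOX RNA was scarce and came mostly from the HOXB cluster. All 39 genes held 14173 counts over the 9 libraries, 0.00786% of all counts. HOXB gave 79.0% of them, HOXC 14.8%, HOXD 3.41% and HOXA 2.82%. A single gene, HOXB9, held 52.4% of all HOX counts. Divided by gene length, HOXB9 stood at 13.4 ± 1.91 CPM per kb of exon in wild type, against 1.69 ± 0.359 for HOXB3, the next highest. Over the 9 libraries the median of all genes tested was 3.52. By its mean over the 9 libraries HOXB9 was above 81.8% of the tested genes on this scale, HOXB3 above 35.5%, HOXC6 above 33.6% and HOXB4 above 25.2%. Only 7 members reached 1 CPM per kb in any group. In bulk RNA, fewer cells with a transcript and less of it per cell cannot be told apart.

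**Figure D1:**
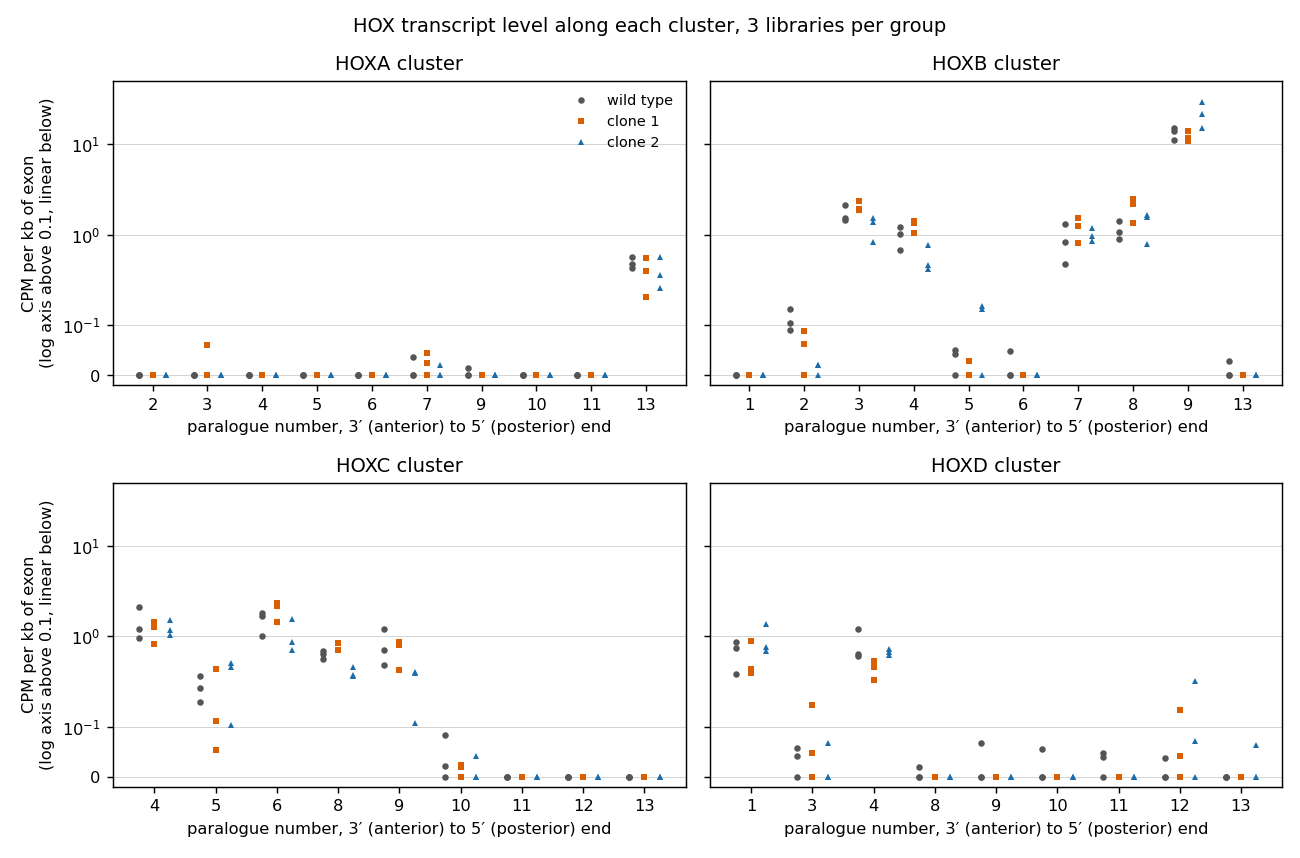
Level of HOX genes along each cluster, as CPM per kb of exon on a log axis that turns linear near 0, with 1 point for each of the 9 libraries, a panel for each cluster and genes ordered by paralogue number from the anterior to the posterior end. HOXB9 stands highest in all 3 groups, and HOXA2 to HOXA11 lie at or near 0.

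The HOXA cluster was almost silent except at its end. The 9 genes from HOXA2 to HOXA11 held 12 counts in all, with 6 of them at 0. A count of 0 over the 9 libraries allows up to 3 counts, or 0.0166 CPM, which covers counting error only. HOXA13, a regulator of the distal limb and the urogenital tract, lies at chr7:27193503-27200106 (GRCh38, minus strand) and gave 97% of the cluster's counts. Its level was 2.48 ± 0.357 CPM in wild type beside 1.94 ± 0.876 in clone 1 and 1.99 ± 0.795 in clone 2, and the libraries of all groups overlapped. Outside the cluster, the flanking gene SKAP2 averaged 54.0 CPM in wild type and HIBADH 46.3, while EVX1, next to HOXA13, was at 0.

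Promoter windows of HOXA13 and its silent neighbour HOXA11 are shown to set side by side the detected gene and an undetected one, with every CG dinucleotide in capitals. The windows run from 250 bases before to 50 bases after the annotated start (RefSeq, GRCh38.p14), at chr7:27200042-27200341 and chr7:27185183-27185482, both on the minus strand.
HOXA13: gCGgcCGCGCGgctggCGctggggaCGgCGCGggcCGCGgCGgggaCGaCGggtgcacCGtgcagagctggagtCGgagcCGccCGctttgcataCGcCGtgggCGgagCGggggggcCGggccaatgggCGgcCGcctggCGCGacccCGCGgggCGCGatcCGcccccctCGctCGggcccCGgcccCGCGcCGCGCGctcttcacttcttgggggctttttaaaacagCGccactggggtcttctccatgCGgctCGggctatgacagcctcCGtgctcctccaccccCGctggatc
HOXA11: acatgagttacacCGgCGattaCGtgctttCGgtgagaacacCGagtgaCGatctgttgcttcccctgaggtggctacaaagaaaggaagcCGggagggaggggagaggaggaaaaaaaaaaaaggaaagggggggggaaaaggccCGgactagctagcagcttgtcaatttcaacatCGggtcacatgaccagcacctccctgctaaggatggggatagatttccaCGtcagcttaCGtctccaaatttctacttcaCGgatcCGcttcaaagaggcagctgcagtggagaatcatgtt
HOXA13 has 44 CG dinucleotides and 76.3% G+C in this window, and HOXA11 has 13 CG and 51.3%. Over the 35116 promoters of the table the median was 14 CG, and over the 27 windows of HOX genes, from 20 of the 39 members, it was 22 (0 to 44). The number of CG does not sort detected from undetected members, since HOXA7, with 6 counts in all libraries, has 31 in its window and HOXD4, a tested gene, has 4. The Notch factor motif TGGGAA, read on both strands, was in 1 of the 27 HOX windows and in 24.03% of all promoters. TATAAA was in 5 of 27 against 11.5%, and the HOX-PBX motif TGATTNAT in 2 of 27 against 2.82%. These are matches of letters in short windows, not measured sites. The 27 windows include none for HOXB9, HOXB3, HOXB4 or HOXC6, the members called below, so motifs of the called genes were not examined. Several of the windows belong to HOXA3, and those of HOXC4 and HOXC5 are identical.

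In the HOXB cluster, HOXB3, HOXB4, HOXB7, HOXB8 and HOXB9 were tested, and the genes on either side of them were close to 0. HOXB1 had 0 counts, HOXB2 had 26 over the 9 libraries, HOXB5 17, HOXB6 3 and HOXB13 2. By these counts HOXB5 and HOXB6 formed a gap between HOXB4 and HOXB7. Of their exon bases, 3.58% in HOXB5 and 32.9% in HOXB6 are also listed for another gene. HOXC showed a block from HOXC4 to HOXC9, with 9 counts for HOXC10 and 0 for HOXC11, HOXC12 and HOXC13. In HOXD, HOXD1 and HOXD4 at the front end were tested, HOXD3 between them had 27 counts, and the 6 genes from HOXD8 to HOXD13 had 29 counts together.

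In RefSeq, HOXC4 and HOXC5 share a start, and their promoter windows are letter for letter the same (chr12:54016638-54016937, plus strand, 15 CG), while the deposited coordinates begin HOXC5 at 54032853. The window is printed because it stands for both neighbours, which differed in level.
HOXC4 and HOXC5: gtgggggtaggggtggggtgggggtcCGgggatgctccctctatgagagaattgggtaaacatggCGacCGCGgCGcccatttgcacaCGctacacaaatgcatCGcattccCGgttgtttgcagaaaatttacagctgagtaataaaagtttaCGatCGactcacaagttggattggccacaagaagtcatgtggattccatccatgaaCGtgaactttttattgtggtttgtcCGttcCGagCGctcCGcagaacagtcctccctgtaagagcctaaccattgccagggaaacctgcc
The wild-type level per kb was 1.43 ± 0.616 CPM for HOXC4 and 0.273 ± 0.0874 for HOXC5. For HOXC5, 59.9% of its exon bases are also listed for another gene, and for HOXC4 17.8%, so how the counting split shared reads bears on both values. The same holds for HOXD4, with 80.5% shared, and for HOXD1, with 57.4% shared, mostly with genes on the other strand, HAGLR among them. It also holds for HOXB3, with 13.2% shared, and for HOXD3, with few counts and 73.0% shared. The strand setting of the counting is not given in the sources used here. HOXA13, HOXB7, HOXB8, HOXB9 and HOXC8 share no exon base with another listed gene.

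The clones were compared with wild type to ask which HOX transcripts differ after JAG1 deletion. No tested HOX gene passed the test in clone 1, and HOXB9, at 1.66-fold, was the only call in clone 2, where DESeq2 also called it and limma-voom called 0 (adjusted p = 0.0530). In clone 1, 0 of 13 members were called at an adjusted p under 0.05, against 5.51% of all 16921 genes tested (1.41% higher and 4.1% lower, edgeR). At an unadjusted p under 0.05 there was 1 member, against 21.8% of all genes, and DESeq2 and limma-voom also called 0. In clone 2, 1 of 13 was called (7.69%), against 5.96% of all genes (3.21% higher and 2.75% lower), and 3 of 13 were at an unadjusted p under 0.05, against 24.2%. Between the clones, 4 of 13 were called (30.8%), 1 higher and 3 lower in clone 2, against 33.9% of all genes (19.8% higher and 14.1% lower). At an unadjusted p under 0.05 there were 5, against 44.6%. The shares of called members were at, near or below the background in all 3 comparisons. The median log2 fold change of the 13 members was -0.13 in clone 1, -0.27 in clone 2 and -0.25 between the clones, against -0.02, 0.00 and -0.01 over all genes tested.

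HOXB9 patterns the thoracic region and takes part in mammary gland development. It lies at chr17:48621159-48626356 (GRCh38, minus strand). In wild type its level was 29.0, 35.9 and 38.6 CPM, in clone 1 28.1, 29.9 and 36.3, and in clone 2 39.4, 56.3 and 75.6. All 3 clone 2 libraries were above all libraries of the other groups, although the lowest was close to the highest wild-type library, and the clone 1 libraries overlapped wild type. In clone 2 HOXB9 was 0.73 higher than in wild type on the log2 scale (SE 0.20, 95% interval 0.30 to 1.15, adjusted p = 0.0436). That call was kept in 1 of 9 fits that left out a library, the one without clone 2 replicate 1 (adjusted p = 0.00584). In the others the adjusted p ran from 0.0503 (without clone 1 replicate 1) to 0.243 (without clone 2 replicate 3). In clone 1 the difference was -0.13 (SE 0.20, interval -0.56 to 0.29, adjusted p = 0.736). Between the clones HOXB9 was 0.86 higher in clone 2 (SE 0.20, interval 0.44 to 1.29, adjusted p = 0.00428), and this call held in all 9 such fits, with adjusted p up to 0.0377.

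HOXB3 and HOXB4, members of the anterior part of the cluster, moved the other way between the clones. HOXB3 (chr17:48548870-48604912, minus strand) was at 11.3, 15.7 and 10.8 CPM in wild type, compared with 14.2, 14.1 and 17.6 in clone 1 and 6.19, 10.2 and 11.5 in clone 2. Every clone 1 library was above every clone 2 library, and wild type overlapped both. Clone 2 was 0.72 lower than clone 1 (log2 fold change -0.72, SE 0.24, adjusted p = 0.0279), while against wild type the values were 0.28 in clone 1 (adjusted p = 0.508) and -0.43 in clone 2 (adjusted p = 0.271). The call between the clones was lost without clone 1 replicate 3 (adjusted p = 0.121) and without clone 2 replicate 1 (adjusted p = 0.0945).

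HOXB4 is known for expanding blood stem cells when overexpressed. It lies at chr17:48575513-48580111 (minus strand), and 17.1% of its exon bases are listed for another gene as well, HOXB3 among them. Its level was 4.52, 3.81 and 2.51 CPM in wild type, against 3.94, 5.04 and 5.29 in clone 1 and 1.73, 2.86 and 1.57 in clone 2. Clone 1 and clone 2 did not overlap, and the lowest wild-type library lay within the range of clone 2. Between the clones HOXB4 was lower in clone 2, at -1.21 (SE 0.34, interval -1.92 to -0.49, adjusted p = 0.0122), against 0.39 in clone 1 (adjusted p = 0.508) and -0.81 in clone 2 (adjusted p = 0.155) relative to wild type. The call was lost without clone 1 replicate 3 (adjusted p = 0.0510) and without clone 2 replicate 3 (adjusted p = 0.0606).

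HOXC6, from the HOXC block, was the third gene lower in clone 2 than in clone 1. It lies at chr12:53990624-54030823 (plus strand), with 15.7% of its exon bases shared, and was at 3.55, 6.35 and 5.88 CPM in wild type beside 5.08, 7.56 and 8.19 in clone 1 and 2.47, 3.05 and 5.55 in clone 2. The highest clone 2 library was above the lowest clone 1 library, so these groups overlapped. Clone 2 was at -0.90 relative to clone 1 (SE 0.33, interval -1.61 to -0.19, adjusted p = 0.0470). The call held in 4 of 9 fits without a library and was lost without wild-type replicate 3, clone 1 replicates 2 or 3, or clone 2 replicates 1 or 2, with adjusted p up to 0.163.

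**Figure D2:**
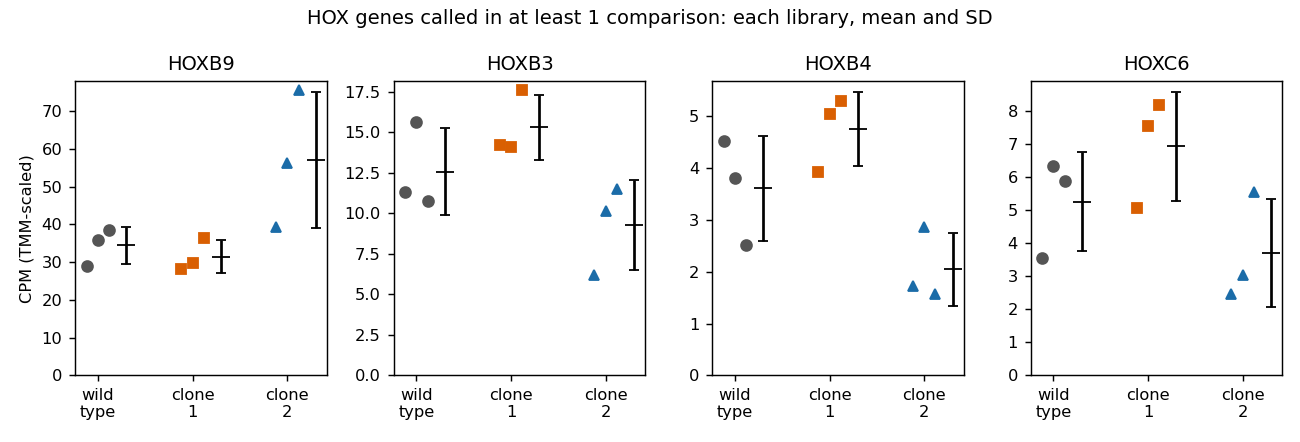
Level in CPM of HOXB9, HOXB3, HOXB4 and HOXC6 in each of the 9 libraries, with the mean and SD of each group. HOXB9 is highest in clone 2 (39.4 to 75.6 CPM), while HOXB3 and HOXB4 of clone 2 lie below every clone 1 library.

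Within each library, HOXB9 stood higher against HOXB3 and HOXB4 of the same cluster in clone 2 than in the other groups. HOXB3 and HOXB4 are the HOXB genes called lower in clone 2 than in clone 1, so these ratios take in their fall as well. HOXB7 and HOXB8 lie nearer to HOXB9 and were not called between the clones (edgeR adjusted p = 0.702 and 0.243). Against these nearer genes clone 2 did not separate from wild type. Wild-type replicate 1 held 597 HOXB9 and 15 HOXB7 counts, a higher ratio than the 637 and 24 of clone 2 replicate 1. Wild-type replicate 3 held 767 HOXB9 and 43 HOXB8 counts, a higher ratio than the 1163 and 67 of clone 2 replicate 2. HOXB9 made up 44.9 to 52.1% of the HOX counts in wild type, compared with 41.6 to 42.4% in clone 1 and 63.9 to 67.5% in clone 2, and no groups overlapped in this share. The HOXB9 count was 2.29 to 3.58 times the HOXB3 count in wild type, against 1.97 to 2.13 times in clone 1 and 5.54 to 6.58 times in clone 2. Against HOXB4 the ratio was 6.42 to 15.3 in wild type, 5.93 to 7.13 in clone 1, which overlapped it, and 19.7 to 48.3 in clone 2, which overlapped neither. These ratios do not depend on how libraries are scaled, and they were chosen after the values were seen, so they are given with no test. The lowest HOXB9 level of clone 2, in replicate 1, came with the lowest HOXB3 level of that clone, and its ratio of 6.37 lies inside the range of the clone.

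**Figure D3:**
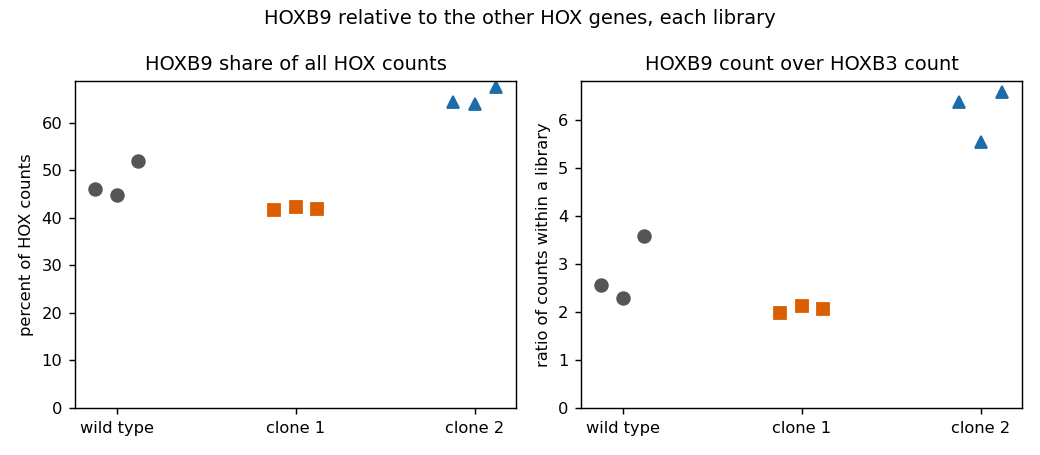
HOXB9 as a percent of all HOX counts (left) and as a ratio to the HOXB3 count (right), with 1 point for each of the 9 libraries. Clone 2 stands at 63.9 to 67.5% and 5.54 to 6.58, above every other library.

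The HOXB cluster as a whole summed to 54.7 ± 6.29 CPM in wild type beside 57.6 ± 6.93 in clone 1 and 73.0 ± 21.8 in clone 2, a sum led by HOXB9. HOXC summed to 12.3 ± 2.48, 13.2 ± 2.63 and 8.99 ± 2.83 CPM, and HOXD to 2.79 ± 0.221, 2.11 ± 0.685 and 3.14 ± 0.76. In each of these sums the libraries of the clones overlapped those of wild type and of each other.

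The other 9 tested members passed no test. HOXB8, which can immortalise myeloid progenitors, averaged 2.30 ± 0.528 CPM in wild type, compared with 4.11 ± 1.20 in clone 1 and 2.76 ± 0.998 in clone 2, at 0.83 in clone 1 (interval 0.06 to 1.61, adjusted p = 0.192). HOXC9, at 1.34 ± 0.633 CPM in wild type and 0.509 ± 0.280 in clone 2, had groups that did not overlap, with a log2 difference of -1.36 (interval -2.65 to -0.08, adjusted p = 0.182). HOXC8 was at 1.504 ± 0.146 CPM in clone 1 and 0.755 ± 0.103 in clone 2, again without overlap, at -0.99 (adjusted p = 0.111). HOXD4 was at 1.19 ± 0.493 CPM in wild type and 0.640 ± 0.153 in clone 1, at -0.89 (adjusted p = 0.347). Groups did not overlap for 2 of 13 members in clone 1, 3 in clone 2 and 6 between the clones, or 15.4, 23.1 and 46.2%, against 29.6, 25.9 and 47.4% of all genes tested. HOXA13, HOXB7, HOXC4, HOXC5 and HOXD1 had intervals that cover 0 in all 3 comparisons, widest for HOXC5 (-2.22 to 1.30 in clone 1), so they neither show nor exclude changes of these sizes.

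**Figure D4:**
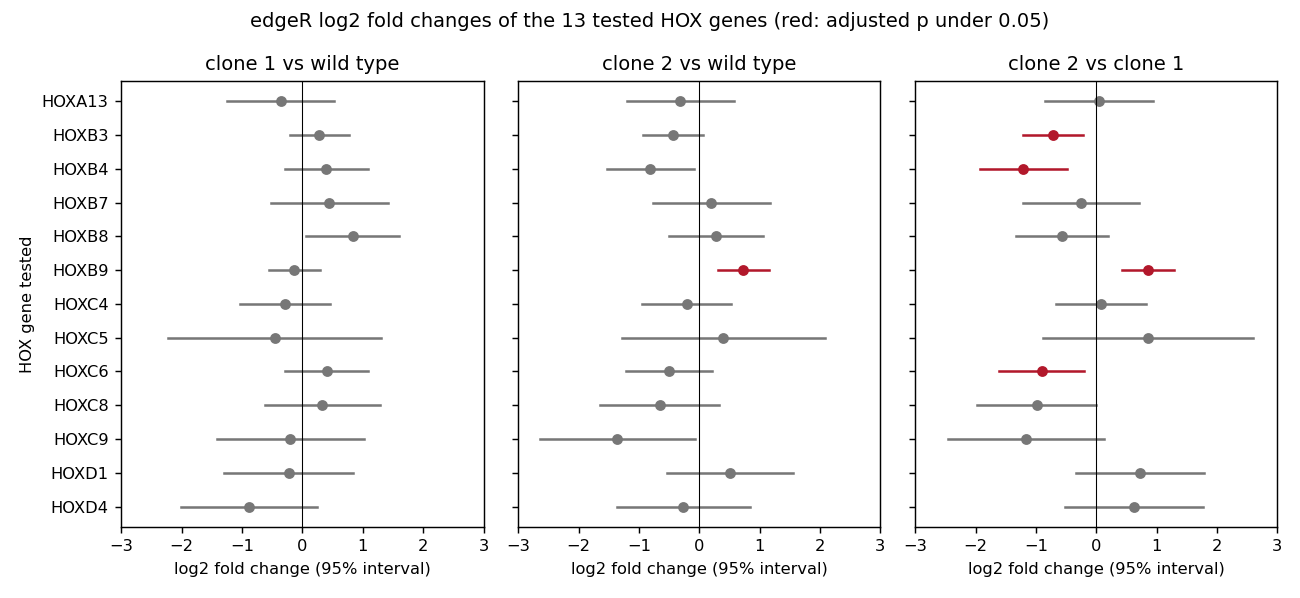
Log2 fold change with its 95% interval for the 13 tested HOX genes in the 3 comparisons, with called genes in red. HOXB9 is called at 0.73 in clone 2 against wild type, and between the clones at 0.86, where HOXB3, HOXB4 and HOXC6 are called below 0.

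The clusters also carry noncoding RNAs. Of 19 long noncoding and antisense RNAs listed, 3 were tested, HOTAIR in HOXC, HOXC-AS2 and HAGLR in HOXD. HAGLR, antisense at the HOXD1 end, averaged 12.6 ± 1.19 CPM in wild type, against 10.5 ± 0.966 in clone 1 and 16.9 ± 2.20 in clone 2. It was higher in clone 2 than in clone 1 by 0.69 (SE 0.18, adjusted p = 0.00888). That is 1 of the 3 tested RNAs called between the clones (33.3%, against 33.9% of all genes). Against wild type HAGLR was at -0.26 in clone 1 and 0.43 in clone 2 (adjusted p = 0.429 and 0.158). HOTAIR, known for its link to Polycomb, averaged 1.84 ± 0.690, 3.10 ± 1.21 and 2.14 ± 0.694 CPM and was not called. HOXA11-AS was at 0, like HOXA11 beside it.

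MicroRNAs of the clusters target HOX transcripts. Their rows hold short precursors, none of the 6 was tested, and the counts say nothing of the mature forms. The mature sequences (RefSeq, GRCh38.p14) are shown with the seed, bases 2 to 8, in capitals. MIR10A lies beside HOXB4, MIR196A1 beyond HOXB9, MIR196A2 in HOXC and MIR196B in HOXA.
hsa-miR-10a-5p: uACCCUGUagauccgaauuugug
hsa-miR-196a-5p: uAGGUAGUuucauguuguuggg
hsa-miR-196b-5p: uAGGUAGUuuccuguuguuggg
Both miR-196 forms share the seed AGGUAGU, whose match ACTACCT was in the longest transcript of 10 of the 39 HOX genes, 4 of the matches in HOXA7, against 17.1% of 19669 protein-coding genes. HOXB8 does not hold that match but holds a stretch that pairs with miR-196a over its whole length, the known target site. Its letters are shown with the bases opposite the seed in capitals, from position 1378 of transcript HOXB8-201.
HOXB8: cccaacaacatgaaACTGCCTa
It pairs at 21 of 22 positions by Watson-Crick rules, at 1 by G:U, with 0 unpaired, while the best stretch of any other HOX gene left 3 unpaired. HOXB8 was low in these cells, at 1.61 to 5.07 CPM.

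Among the 10 tested PBX, MEIS, PKNOX and TGIF genes, 1 was called in clone 1 (10%, against 5.51% of all genes). The same gene, TGIF2, was the only call between the clones (10%, against 33.9%). No gene of the PBX, MEIS or PKNOX families was called by edgeR, DESeq2 or limma-voom in any comparison. TGIF2, a TALE homeodomain repressor, averaged 39.8 ± 4.26 CPM in wild type beside 27.5 ± 4.07 in clone 1 and 55.6 ± 2.03 in clone 2. It fell by 0.53 in clone 1 (adjusted p = 0.0440), was 0.48 higher in clone 2 without a call (adjusted p = 0.0606), and was 1.02 higher in clone 2 than in clone 1 (adjusted p = 0.00017). In clone 2, 0 of the 10 were called by edgeR (against 5.96% of all genes), with 4 at an unadjusted p under 0.05 (against 24.2%). Limma-voom called 0, and DESeq2 called 2, TGIF1 lower and TGIF2 higher. Over all genes in clone 2 against wild type, DESeq2 called 864 higher and 789 lower of 16464. The median of the 10 was -0.12 in clone 1, -0.03 in clone 2 and 0.10 between the clones.

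Polycomb and MLL complexes keep HOX clusters off and on. Of 11 Polycomb complex 2 genes and 19 Polycomb complex 1 genes, 0 were called in either clone against wild type (edgeR). Over all genes 5.51% were called in clone 1 and 5.96% in clone 2. At an unadjusted p under 0.05 there were 2 and 3 in clone 1, against 21.8% of all genes. In clone 2 there were 3 and 5, against 24.2%. DESeq2 called 1 of these Polycomb genes, PCGF1, lower in clone 2, and limma-voom called 0. Between the clones 3 of 11 were higher in clone 2, led by AEBP2 at 0.95 (adjusted p = 0.00361) with SUZ12 at 0.60, and 7 of 19 were higher and 1 lower, led by CBX6 at 0.72 (adjusted p = 0.00243). These are 27.3% and 42.1% of the lists, against 33.9% of all genes. Of 17 MLL complex and H3K27 demethylase genes, 1 was lower in clone 1 (5.88%, against 5.51% of all genes) and 2 were higher in clone 2 (11.8%, against 5.96%). PSIP1, which tethers MLL to chromatin, averaged 46.3 ± 9.75 CPM in wild type, compared with 35.5 ± 1.56 in clone 1 and 121 ± 26.3 in clone 2, 1.38 higher in clone 2 (SE 0.18, adjusted p = 0.000386). MLLT1 was 0.69 higher in clone 2 (adjusted p = 0.00892), and the core subunit ASH2L fell by 0.62 in clone 1 (adjusted p = 0.0266). Between the clones 8 of the 17 were called, 7 of them higher in clone 2 (47.1%, against 33.9% of all genes).

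Retinoic acid switches HOX genes on in the embryo, and CDX factors act on the same clusters. Of 18 genes of these inputs 11 were tested, and CDX1, CDX2 and CDX4 were at 0. In clone 1, 2 of the 11 were called (18.2%, against 5.51% of all genes), and in clone 2 1 was (9.09%, against 5.96%). STRA6, a receptor that takes up vitamin A, was at 4.59 ± 1.76 CPM in wild type, against 1.21 ± 0.677 in clone 1 and 1.29 ± 0.185 in clone 2, a fall of 1.91 and 1.83 (adjusted p = 0.0199 and 0.0236). ALDH1A3, which makes retinoic acid, fell by 1.15 in clone 1 (adjusted p = 0.00777) and was at -0.19 in clone 2 (adjusted p = 0.63). Between the clones RXRA, RARA, RARG and ALDH1A3 were higher in clone 2, 4 of 11 (36.4%, against 33.9% of all genes).

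Of 8 CTCF and cohesin genes, which shape the loops of the clusters, CTCF and SMC1A were lower in clone 1, at -0.60 and -0.56 (adjusted p = 0.0398 and 0.0491; 25% of the list, against 5.51% of all genes). DESeq2 called both and limma-voom called CTCF alone. In clone 2 against wild type, edgeR called 0 of 8 (against 5.96% of all genes), with 3 at an unadjusted p under 0.05 (against 24.2%). DESeq2 called 1, SMC1A, and limma-voom called 0. Between the clones, 6 of the 8 were higher in clone 2 (75%, against 33.9% called and 19.8% higher among all genes). Of 20 genes that flank the clusters 14 were tested. In clone 1, 0 were called by edgeR (against 5.51% of all genes), DESeq2 or limma-voom, with 0 at an unadjusted p under 0.05 (against 21.8%, edgeR). In clone 2 CBX1, on the far side of the HOXB cluster from HOXB9, was higher by 0.66 (adjusted p = 0.0206), 1 of 14 (7.14%, against 5.96% of all genes), and DESeq2 and limma-voom also called HNRNPA1. Between the clones 4 were higher and 1 lower in clone 2 (35.7%, against 33.9% of all genes), with CBX1 at 0.90 (adjusted p = 0.0005) and HNRNPA1, near HOXC, at 0.92 (adjusted p = 0.00185). CALCOCO2, on the other side of the HOXB cluster, beyond HOXB9 and HOXB13, was at 0.57 between the clones (adjusted p = 0.00561). SNX11 and NFE2L1, on the same side of HOXB as CBX1, were not called in any comparison.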

How the data were processed

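Bulk RNA was sequenced from 3 libraries in each of the 3 groups. The deposited values are raw read counts for each gene, in separate tables for the 2 clones that repeat the wild-type libraries with identical values (3 of 3 columns), so wild type entered the tests a single time. STAR, featureCounts, Subread and DESeq2 are named with GRCh38 in the submitters' processing notes, without versions. Strand setting and annotation release were not given in the sources. Between replicates of a group the chi-square statistic per gene was 17.4 to 61.9, beyond sampling noise, so each was counted as a sample.

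Differential expression was assessed with edgeR 4.0.16 under R 4.3.3. Libraries were scaled by TMM, genes were filtered per group at 10 counts (16921 remained), and a quasi-likelihood model with robust dispersion and 1 mean per group was fitted to the 9 libraries together, leaving 6 residual degrees of freedom. Tests are two-sided, with Benjamini-Hochberg adjustment over all tested genes and a threshold of 0.05. Of the 13 HOX members that passed the filter, 11 were over its minimum in all 9 libraries. CPM uses TMM-scaled library sizes. The fit was also run on simulated counts with known changes in clone 1 against wild type. EdgeR called 18.4% of genes changed 1.5-fold, 54.2% at 2-fold, 82% at 4-fold and 98% at 8-fold. A missing call therefore does not exclude a change of 1.5-fold or 2-fold. Alternatives were RLE scaling, no filter, DESeq2 1.42.0, limma-voom (limma 3.58.1), a test against 1.5-fold (glmTreat), only the 6 libraries compared, a replicate block, a correction for GC content and length (GC known for 87.3% of tested genes), both together, and leaving out each library.

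HOX genes that were called in any comparison, or that averaged 5 CPM or more in a group, are given per library, and up to 6 called genes per list are named. Values of some single genes are not reported here. The HOX genes and gene lists were chosen with earlier results of these data known. The promoters printed, and the choice of HOXA13, HOXA11 and HOXC4, were settled after the values were seen. Motifs, seed matches and microRNA sequences come from RefSeq and GENCODE tables of GRCh38.

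Replicate numbers are shared between groups, but the labels do not say what a number marks. Between wild type and clone 2, deviations from the group means correlated at 0.223, 0.269 and 0.246 for libraries of the same number. For unlike numbers they ran from -0.246 to -0.011. The replicate numbers were taken to pair these libraries, from the data and not the labels. With clone 1, the values were 0.245, 0.0825 and -0.0965 against wild type and 0.219, -0.0215 and 0.0124 against clone 2. Unlike numbers reached 0.215 there (clone 1 replicate 3 with wild-type replicate 2) and 0.202 (clone 1 replicate 3 with clone 2 replicate 2). No pairing was taken with clone 1. The main fit uses no pairing at all, so its p-values for clone 2 against wild type leave it out. The replicate block pairs all 3 groups, clone 1 included. With that block, edgeR gave HOXB9 in clone 2 against wild type an adjusted p of 0.00134, against 0.0436 in the main fit. The lower value rests on a pairing read from these same counts, so it is no separate support for the call.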

Additional observations from a re-analysis of the deposited data

Results flagged for a closer look

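4 HOX genes had effects in the 2 clones that differed from each other by the test of the difference itself, which equals the contrast of clone 2 with clone 1 because both clones share the wild-type libraries. The clone 2 effect minus the clone 1 effect was 0.86 for HOXB9, -0.72 for HOXB3, -1.21 for HOXB4 and -0.90 for HOXC6, on the log2 scale. Of the 4, HOXB9 was called in clone 2 against wild type and the other 3 in neither clone. The 4 are 30.8% of the 13 tested members, against 33.9% of all genes tested by the same contrast.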

How the results depend on the processing

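HOX counts were low: 26 members were not tested, and HOXC5, the lowest of those tested, held 90 counts over the 9 libraries. Over all alternatives no log2 fold change of HOXB9, HOXB3, HOXB4 or HOXC6 changed direction, though glmTreat reuses the fold changes of the main fit. Of 216 values, 190 kept direction and call, 25 lost the call and 1 gained it. The 190 include comparisons never called, such as all of clone 1, which had no call to lose. HOXB9 in clone 2 against wild type kept its call in 1 of 9 fits without a library and in 5 of 9 others. Between the clones HOXB9, HOXB3, HOXB4 and HOXC6 kept it in 9, 7, 7 and 4 of 9 fits without a library. Each kept it in 8 of 9 others. In clone 1 the count of HOX calls stayed at 0 throughout. In clone 2 against wild type, the HOXB9 call was lost (0 HOX genes higher) with limma-voom, glmTreat, only the 6 libraries compared and the GC content and length correction (adjusted p for HOXB9 0.0530, 1, 0.0913 and 0.0684, with log2 fold changes of 0.69, 0.73, 0.72 and 0.73 against 0.73), and ranged from 0 to 1 when a library was left out. With the replicate block, whose pairing was read from the same data, HOXB9 stayed higher in clone 2 (edgeR adjusted p = 0.00134). With the replicate block and the GC content and length correction 1 HOX gene, HOXB3, was lower (-0.58, edgeR adjusted p = 0.0498). The replicate block changed no other HOX call. Between the clones, glmTreat called 0 higher and 0 lower, and the count lower ranged from 0 to 3 when a library was left out, with 0 without clone 1 replicate 3 and 1 without clone 2 replicate 1. The cause of these changes was not tested.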
